A study of Mus musculus with 12 samples.

Results

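Entry into the cell cycle in the aortic wall was described through 10 genes of G1 control: the D-type cyclins Ccnd1, Ccnd2 and Ccnd3, their partner kinases Cdk4 and Cdk6, the CDK inhibitors Cdkn1a, Cdkn1b, Cdkn1c and Cdkn2c, and Rb1. They were taken as every probe whose gene name on the array was one of these symbols, which gave 16 probes of 55681. A probe was kept when each of its arrays in some group read well above background, as 14 of these did, and they stood for 9 of the 10 genes, among 22761 genes tested in all. The samples were 12 aortas of male mice, each labelled and hybridised to its own 1-colour array, in 4 groups of 3. WT mice were Socs3 fl/fl littermates without Cre. smSocs3-KO mice were Socs3 fl/fl with a Cre transgene driven by the smooth muscle SM22 promoter. The strain was labelled 129S5/SvEvBrd, C57BL6 and SJL in every group, and age is not given in the labels. Aortas were taken before challenge or at day 3 of BAPN (150 mg/kg/day), an inhibitor of collagen and elastin crosslinking, with angiotensin II (AngII, 1000 ng/kg/min), both from osmotic minipumps. The labels do not say that the arrays of a group came from separate mice, so p-values measure the spread between these arrays.

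D-type cyclins are made when growth signals arrive, and they activate Cdk4 and Cdk6. The active kinases phosphorylate the retinoblastoma protein, the product of Rb1, which then releases the E2F transcription factors that switch on genes of DNA replication. INK4 inhibitors, such as the products of Cdkn2b and Cdkn2c, bind Cdk4 and Cdk6 themselves. CIP/KIP inhibitors, the products of Cdkn1a (p21), Cdkn1b (p27) and Cdkn1c (p57), act on cyclin and CDK complexes, and smooth muscle of a healthy artery is known to be mostly quiescent.

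RefSeq promoter windows were available here for 6 of the 10 genes, 9 windows in all, on GRCm38.p6. Those of Ccnd1, Ccnd2, Cdkn1c and Rb1 were not available, so these genes were not searched. The 250 bases before each transcript start were searched on both strands for TTCCCGC and TTGGCGC (E2F), CACGTG (the E-box that Myc binds), CATGNNNNNNCATG (the core of paired p53 sites), TTCNNNGAA (STAT) and TGANTCA (AP-1). Matches were found in 4 windows, and 3 of these are shown because their genes carry the results below or, for Cdkn1a, because its 2 kept probes gave different responses. Capitals mark the motif in each, and each sequence runs 5′ to 3′ on the gene's strand.

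Cdk4, chr10:127063285-127063534, plus strand, CACGTG: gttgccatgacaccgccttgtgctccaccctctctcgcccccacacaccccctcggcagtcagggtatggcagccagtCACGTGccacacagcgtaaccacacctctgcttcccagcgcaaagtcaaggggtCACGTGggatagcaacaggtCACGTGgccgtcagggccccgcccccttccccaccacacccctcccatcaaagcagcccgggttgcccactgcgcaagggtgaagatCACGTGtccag

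Cdkn1a, first of its 2 starts, chr17:29090729-29090978, plus strand, CATGNNNNNNCATG: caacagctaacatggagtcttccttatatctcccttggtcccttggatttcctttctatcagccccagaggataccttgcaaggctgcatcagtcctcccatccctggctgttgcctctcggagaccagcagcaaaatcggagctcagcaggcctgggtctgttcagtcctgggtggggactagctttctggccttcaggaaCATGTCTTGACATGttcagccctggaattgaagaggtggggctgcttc

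Cdkn2c, first of its 2 starts, chr4:109666757-109667006, minus strand, TTCCCGC: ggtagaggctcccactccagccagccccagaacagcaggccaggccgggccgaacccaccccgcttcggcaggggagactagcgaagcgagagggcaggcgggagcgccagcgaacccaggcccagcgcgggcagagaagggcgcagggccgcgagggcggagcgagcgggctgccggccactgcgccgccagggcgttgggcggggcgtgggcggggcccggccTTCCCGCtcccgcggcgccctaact

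The Cdk4 window held 4 copies of the E-box. At least 1 copy was present in 6.02% of the 32851 RefSeq promoter windows of the same length, and 3 or more copies in 0.0609%. The paired p53 core lay 48 bases before the upstream start of Cdkn1a and occurred in 0.49% of windows. The other Cdkn1a start among these windows lay 2790 bases downstream, and its window held none of the motifs searched. TTCCCGC stood 25 bases before a start of Cdkn2c and in 3.82% of windows. A single E-box was found in the window of Cdk6. These are matches of letters, and binding of a factor was not measured.

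Signals are log2 values over the array's own 75th percentile, so a difference of 1 is a doubling, and levels of different probes are not compared. In the limma fit over all 22761 genes with Benjamini-Hochberg adjustment, 2 of 9 genes passed an adjusted p of 0.05 in the WT challenge response (day 3 against before), where 4.68% of all genes did. Cdkn2c rose, as did 3.59% of all genes, and Cdkn1c fell, as did 1.09%. In the smSocs3-KO response 0 of 9 passed, against 2.45% of all genes, and 2 had an unadjusted p under 0.05, a threshold that 23.8% of all genes met. Averaged over both genotypes, the challenge raised Ccnd1 and Cdkn2c and lowered Cdkn1c, 3 of 9 genes where 22.7% of all genes passed (13.6% higher and 9.18% lower). The median difference over the 9 genes in this mean response was 0.17, and over all genes it was -0.05. Between genotypes 0 of 9 passed either before challenge (0.0264% of all genes) or at day 3 (1.11%). At an unadjusted p under 0.05 the counts were 0 of 9 before challenge, against 4.4% of all genes, and 1 of 9 at day 3, against 16.2%. The interaction, which is the smSocs3-KO response minus the WT response, was called for 0 of 9 genes and 0% of all genes, with 1 of 9 unadjusted against 5.33%. At the study's threshold, a p under 0.01 (unadjusted here) with a change of more than 4-fold, 0 of 9 passed in every comparison. Of all genes, 1.28% passed it in WT, 1.63% in smSocs3-KO, 0.242% between genotypes before challenge, 1.11% at day 3, 0.308% in the interaction and 1.27% in the mean response. Day 3 arrays did not overlap arrays before challenge for 7 of 9 genes in WT, against 35.3% of all genes, and for 3 of 9 in smSocs3-KO, all higher, against 14.1%.

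**Figure D1:**
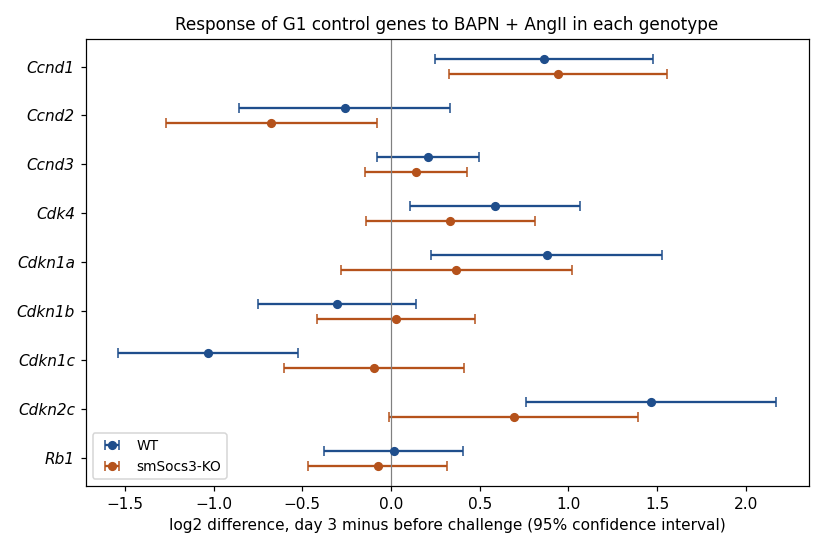
Log2 difference between day 3 and before challenge (horizontal axis) for 9 G1 control genes in WT and smSocs3-KO aortas; points are limma estimates from 3 arrays against 3 and bars are 95% confidence intervals. Cdkn2c at 1.46 and Cdkn1c at -1.03 in WT lie farthest from 0, while both Ccnd1 intervals exclude 0.

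The arrays lay on 2 slides, 7 on the first (6 WT and smSocs3-KO before challenge replicate 1) and 5 on the second (the other smSocs3-KO arrays), so genotype at day 3 and slide cannot be told apart. The value with slide as a block is given where it changed a call. Only smSocs3-KO before challenge had arrays on both slides. With the block, genotype differences before challenge and at day 3 therefore rest on its replicate 1. The smSocs3-KO response with the block comes from the arrays of the second slide. Between 55.4% and 61.2% of spots were well above background per array, 0 were saturated, and arrays of a group correlated at 0.964 to 0.992 across genes. Socs3 itself, the gene to be deleted, was not lower in the libraries labelled smSocs3-KO: its log2 signal was 0.24 to 1.46 there and 0.30 to 0.75 in WT before challenge. At day 3 it was 2.28 to 4.13 against 0.64 to 2.30. Whether the probe lies in the deleted part is not known here, so groups are named by their labels. All 8 smooth muscle markers (Acta2, Myh11, Tagln, Cnn1, Smtn, Lmod1, Des and Myocd) were well above background on every array. WT day 3 replicate 4 stood apart from the other WT day 3 arrays: the mean log2 level of 13 mitosis genes over WT before challenge was 2.02 there and 4.78 and 4.73 in replicates 1 and 3. On the same scale the mean of 8 macrophage markers was -0.03 in replicate 4 and 1.51 and 1.07 in replicates 1 and 3, and that of the 8 smooth muscle markers was 0.08, -0.62 and -0.69. Before challenge 9 to 12 of the 13 mitosis genes were well above background on an array. In this tissue RNA a gain or loss of cells of one type cannot be told from a change of RNA per cell.

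**Figure D2:**
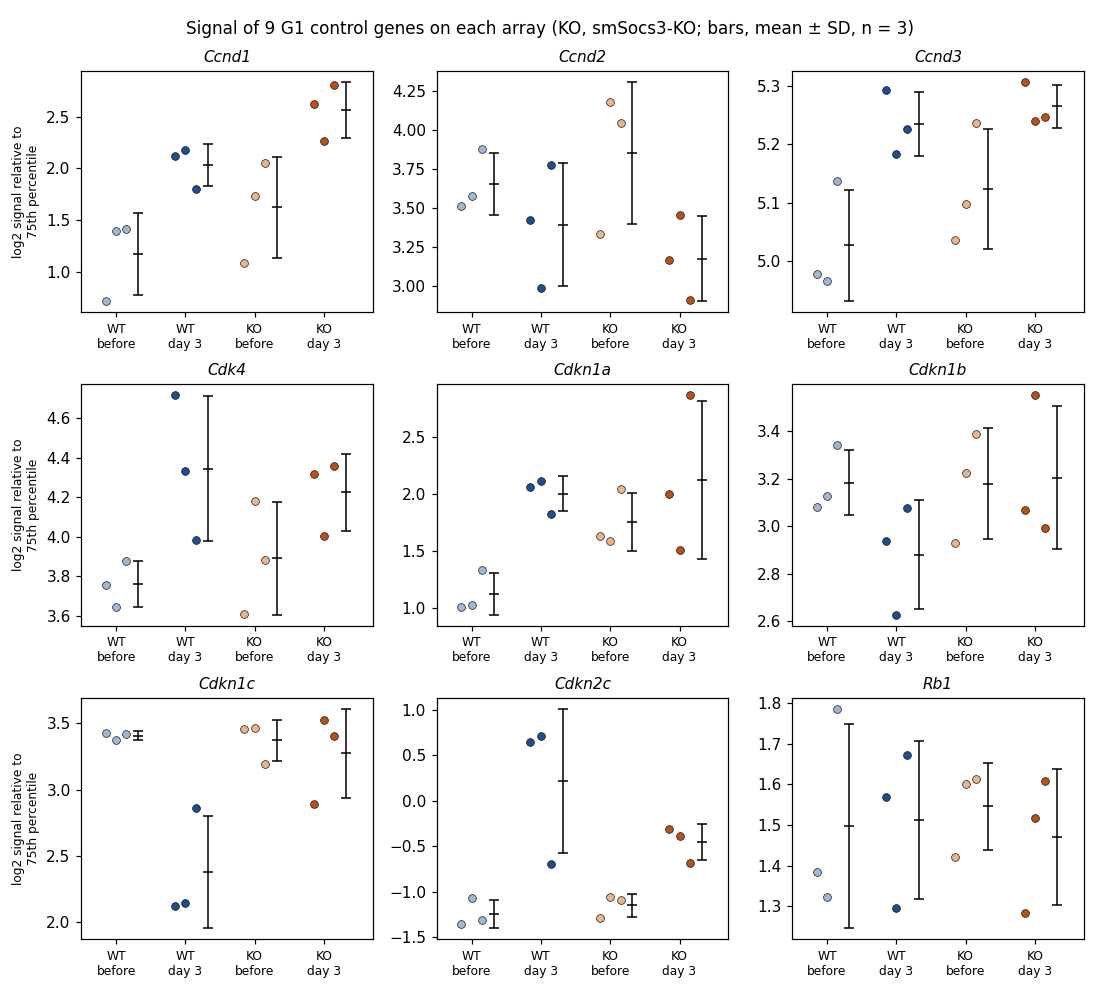
Log2 signal relative to the array's 75th percentile (vertical axis, its own scale in each panel) for 9 genes in the 4 groups; each point is 1 array, and bars show mean ± SD (n = 3). Cdkn2c is higher on every day 3 array than on every array before challenge, and Cdkn1c is low in WT day 3.

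Ccnd1 encodes cyclin D1, the D-type cyclin most often linked to mitogen signals. Its probe lies at chr7:152116202-152116261 (mm9, minus strand). The log2 signal was 0.72, 1.39 and 1.41 in WT before challenge and 2.12, 2.18 and 1.81 at day 3. In smSocs3-KO it was 1.09, 1.74 and 2.05 before and 2.63, 2.27 and 2.80 at day 3. The day 3 arrays were above those before challenge within each genotype without overlap. Ccnd1 rose by 0.90 (SE 0.20, adjusted p = 0.0122) in the mean response, or 1.87-fold. The separate responses were of like size, 0.86 (SE 0.28, adjusted p = 0.0860) in WT and 0.94 (SE 0.28, adjusted p = 0.0887) in smSocs3-KO. Their difference was 0.08, with a 95% confidence interval from -0.79 to 0.94. The mean response kept its call when each array in turn was left out, at 0.77 to 1.01. At day 3 Ccnd1 was higher in smSocs3-KO on all 3 arrays than on all 3 WT arrays, as were 7.86% of all genes, by 0.53 (SE 0.28, adjusted p = 0.379), and with slide as a block that difference was -0.28.

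Ccnd2, cyclin D2, pointed the other way. WT arrays gave 3.51, 3.58 and 3.88 before challenge and 3.42, 2.99 and 3.77 at day 3. smSocs3-KO arrays gave 3.34, 4.18 and 4.05 before and 3.17, 3.45 and 2.91 at day 3. Groups overlapped in both genotypes, in smSocs3-KO only through replicate 1 before challenge, the array on the other slide. The mean response was -0.47 (SE 0.19, adjusted p = 0.0953), and it passed with slide as a block, at -0.60 (adjusted p = 0.0376). The smSocs3-KO response was -0.68 (SE 0.27, adjusted p = 0.166) over all arrays and -0.94 (adjusted p = 0.124) on the second slide alone. Its probe lies at chr6:127098696-127098755 (mm9, minus strand).

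Ccnd3, cyclin D3, had the smallest differences of the cyclins. Its log2 signal stayed between 4.97 and 5.14 in WT before challenge and between 5.18 and 5.29 at day 3, and in smSocs3-KO between 5.04 and 5.24 and between 5.24 and 5.31. No day 3 array was below an array of its genotype before challenge, yet the differences were small, 0.21 (SE 0.13, adjusted p = 0.327) in WT and 0.14 (SE 0.13, adjusted p = 0.517) in smSocs3-KO. The mean response of 0.17 had a 95% confidence interval from -0.03 to 0.38. A second Ccnd3 probe gave 0.27 (adjusted p = 0.126). Under quantile normalisation the WT difference turned to -0.05.

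By Pearson correlation over the 12 arrays, the genes most like Ccnd1 were BC029722 (r = 0.965), Polr3c, a subunit of RNA polymerase III (0.963), and Dram1, a p53-induced regulator of autophagy (0.957). Those most like Ccnd2 were a noncoding RNA that the array names by its interval on chromosome 6 (0.969), 1810062O18Rik (0.956) and AW554918 (0.946). For Ccnd3 they were Tssc4 (0.951), Dlst (0.948), a subunit of the oxoglutarate dehydrogenase complex, and Pomt1 (0.945), a protein O-mannosyltransferase.  The arrays share groups and slides, so these values are a description over 12 points.

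Cdk4, the catalytic partner of the D-type cyclins, was represented by 3 probes, of which the brightest lies at chr10:126504279-126504338 (mm9, plus strand). On it WT arrays gave 3.76, 3.64 and 3.88 before challenge and 4.72, 4.33 and 3.98 at day 3. smSocs3-KO arrays gave 3.61, 4.18 and 3.88 before and 4.32, 4.0 and 4.36 at day 3. WT groups did not overlap and smSocs3-KO groups did. The mean response of 0.46 (SE 0.15, adjusted p = 0.0523) missed the threshold on this probe. Cdk4's other probes passed it, at 0.61 (adjusted p = 0.0344) and 0.67 (adjusted p = 0.0341), and the mean of the 3 probes passed too, at 0.58 (adjusted p = 0.0343). Without WT day 3 replicate 4 the WT response of the brightest probe was 0.76 (adjusted p = 0.0378), against 0.58 (SE 0.22, adjusted p = 0.122) with it. Cdk6 had a single probe, which was well above background on 2 of 12 arrays, both from WT day 3, replicates 1 and 4. It was therefore not tested, and no fold is given.

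Among the CIP/KIP inhibitors, Cdkn1c was the gene called in WT. Its log2 signal lay within 3.37 to 3.43 on the WT arrays before challenge and was 2.12, 2.15 and 2.86 at day 3. The fall of 1.03 (SE 0.23, adjusted p = 0.0382) left 49.0% of the starting level. In smSocs3-KO the arrays gave 3.45, 3.46 and 3.20 before and 2.89, 3.53 and 3.40 at day 3, a difference of -0.10 (SE 0.23, adjusted p = 0.809) with overlapping groups. Every smSocs3-KO day 3 array was above every WT day 3 array, by 0.90 (SE 0.23) on average, but the genotype difference at day 3 missed the threshold over all genes (adjusted p = 0.0970). The test of the interaction itself gave 0.93 (SE 0.32, unadjusted p = 0.0155, adjusted p = 0.897), so a difference between the responses was not called. In the mean response Cdkn1c fell by 0.56 (SE 0.16, adjusted p = 0.0323), to 67.7%. The probe lies at chr7:150644753-150644812 (mm9, minus strand).

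The Cdkn1c calls depended on single arrays. Without WT day 3 replicate 4 the WT fall was 1.27 (adjusted p = 0.00383) and the genotype difference at day 3 passed, at 1.14 (adjusted p = 0.0222). The WT call was lost, with differences of -1.27 to -0.90 over all 12 omissions, without any WT array other than day 3 replicate 4 and without smSocs3-KO before challenge replicate 4 or day 3 replicate 3. Of all genes, 0 to 9 were called in WT when a WT array other than day 3 replicate 4 was left out, and 1065 with all arrays. The mean call was lost, at -0.69 to -0.47 over all omissions, without any WT array other than day 3 replicate 4 and without smSocs3-KO before challenge replicates 1 and 3 or day 3 replicate 2. With slide as a block the WT response passed (adjusted p = 0.0311), and the mean response of -0.54 did not (adjusted p = 0.0575). Markers of other cells also differed between genotypes at day 3. At day 3, 2 of 6 fibroblast markers were called higher in smSocs3-KO (Dpt by 1.99, adjusted p = 0.0230, and Pi16 by 1.64, adjusted p = 0.0467), where 1.11% of all genes were called. The 6 differences ran from -0.46 to 1.99, with a median of 0.39. The summed level of the 6, in multiples of the 75th percentile, was 842 to 1169 there and 681 to 809 in WT day 3. The summed level of 5 mesothelial markers was 30.7 to 41.8 against 2.70 to 13.8. It already differed before challenge, at 28.3 to 64.4 in smSocs3-KO against 3.92 to 22.9 in WT. Of the 5 mesothelial markers 0 were called at day 3 and 0 before challenge, where 1.11% and 0.0264% of all genes were. At an unadjusted p under 0.05, 4 of 5 were higher at each time, against 16.2% and 4.4% of all genes called. The part of these fibroblast and mesothelial markers in the Cdkn1c difference was not tested.

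Cdkn1a, the inhibitor p21 and a classical p53 target, was measured on 2 probes that passed the filter and that differed in their response. The brightest, at chr17:29237377-29237436 (mm9, plus strand), gave 1.02, 1.03 and 1.34 in WT before challenge and 2.07, 2.11 and 1.83 at day 3, a difference of 0.88 (SE 0.30, adjusted p = 0.0970). In smSocs3-KO it gave 1.63, 1.59 and 2.05 before and 2.0, 1.51 and 2.87 at day 3. All smSocs3-KO arrays before challenge were thus above all WT arrays before challenge (difference 0.63, SE 0.30, adjusted p of 1), a pattern shown by 6.48% of all genes in this direction. The mean response of 0.62 missed the threshold (SE 0.21, adjusted p = 0.0536), and the mean of both probes passed it (0.52, adjusted p = 0.0247).

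The second Cdkn1a probe, at chr17:29227986-29228045 (mm9), lies upstream of the first and was designed on another RefSeq transcript of the gene. Its log2 signal was -3.00, -2.67 and -2.51 in WT before challenge and -1.32, -1.80 and -1.81 at day 3, and in smSocs3-KO -2.14, -1.86 and -1.53 before and -1.91, -1.97 and -2.37 at day 3. In a fit over all kept probes it rose by 1.08 (SE 0.23, adjusted p = 0.0380) in WT, while the smSocs3-KO difference was -0.24 (SE 0.23, adjusted p = 0.529). The interaction was -1.32 (SE 0.32, unadjusted p = 0.00176, adjusted p = 0.715), against -0.51 on the brightest probe, and neither was called. Cdkn1b, the inhibitor p27, also had probes that differed. Its brightest gave a mean response of -0.14 (SE 0.14, adjusted p = 0.486), with 3.08, 3.13 and 3.34 in WT before challenge and 2.94, 2.63 and 3.07 at day 3, and 2.93, 3.22 and 3.39 and then 3.07, 3.55 and 2.99 in smSocs3-KO. Its second probe, designed on an Ensembl transcript, fell by 0.53 in the mean response (SE 0.16, adjusted p = 0.0395), with a difference of -0.53 in WT and -0.53 in smSocs3-KO.

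**Figure D3:**
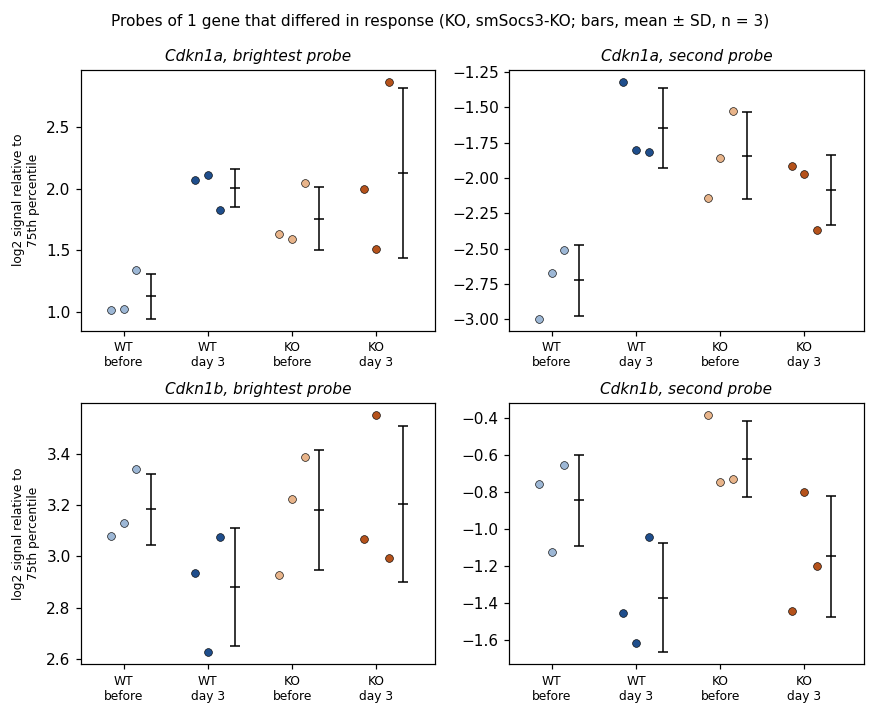
Log2 signal relative to the array's 75th percentile (vertical axis, own scale in each panel) for 2 probes each of Cdkn1a and Cdkn1b in the 4 groups; each point is 1 array, and bars show mean ± SD (n = 3). The second Cdkn1a probe is at -3.00 to -2.51 in WT before challenge, below every other group, while the second Cdkn1b probe is lower on average at day 3 in both genotypes.

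Cdkn2c, the INK4 inhibitor p18, had the largest difference of the 9 genes in WT. Its probe (chr4:109333508-109333567, mm9, minus strand) gave -1.36, -1.07 and -1.31 in WT before challenge and 0.64, 0.71 and -0.70 at day 3, where replicate 4 was the low array. In smSocs3-KO it gave -1.30, -1.06 and -1.09 before and -0.31, -0.39 and -0.68 at day 3. All 6 day 3 arrays were above all 6 arrays before challenge, as for 5.15% of all genes, and no other of the 9 genes showed this. Cdkn2c rose by 1.46 (SE 0.32, adjusted p = 0.0363) in WT and by 1.08 (SE 0.23, adjusted p = 0.0110) in the mean response. The smSocs3-KO difference was 0.69 (SE 0.32, adjusted p = 0.215), and the interaction of -0.77 was not called (SE 0.45, adjusted p = 0.970). Without WT day 3 replicate 4 the WT rise was 1.92 (adjusted p = 0.000255), Cdkn2c passed in smSocs3-KO (adjusted p = 0.0279), and it was lower at day 3 in smSocs3-KO than in WT by 1.14 (adjusted p = 0.0159). The WT call was lost without any other WT array, without smSocs3-KO before challenge replicate 4, and without smSocs3-KO day 3 replicate 2 or 3, at 1.22 to 1.92 over all 12 omissions. The mean call held in all 12.

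The other INK4 genes were taken from a list of 28 G1 control genes, of which 27 were tested. Cdkn2b, the inhibitor p15, was singled out after its values were seen, since it was the only gene of that list called at day 3 between genotypes. It gave 0.57, 0.57 and 0.69 in WT before challenge and 0.63, 1.03 and 1.36 at day 3. In smSocs3-KO it gave 1.40, 1.29 and 1.02 before and -0.32, -0.39 and 0.21 at day 3, the lowest values of the series. Cdkn2b fell by 1.40 in smSocs3-KO (SE 0.22, adjusted p = 0.0178), while the WT difference was 0.40 (SE 0.22, adjusted p = 0.274). At day 3 it was lower in smSocs3-KO than in WT by 1.18 (adjusted p = 0.0346). The interaction of -1.80 (SE 0.31, unadjusted p = 0.000138) did not pass over all genes (adjusted p = 0.290). On the second slide alone the smSocs3-KO difference was -1.32 (adjusted p = 0.0873), and with slide as a block the genotype difference at day 3 was -0.93 (adjusted p = 0.293). When each array was left out in turn, the smSocs3-KO call was lost without before challenge replicate 1 (-1.32, adjusted p = 0.0670) or 3 (-1.37, adjusted p = 0.0564). The genotype call at day 3 held in 4 of 12 omissions, those of WT day 3 replicates 1 and 4 and smSocs3-KO before challenge replicates 1 and 4, at -1.37 to -1.0 over all 12. Cdkn2d, the inhibitor p19, rose by 0.94 in the mean response (SE 0.18, adjusted p = 0.00820). Cdkn2a, whose locus gives p16 and p19Arf, had a mean response of 0.07 (adjusted p = 0.871).

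**Figure D4:**
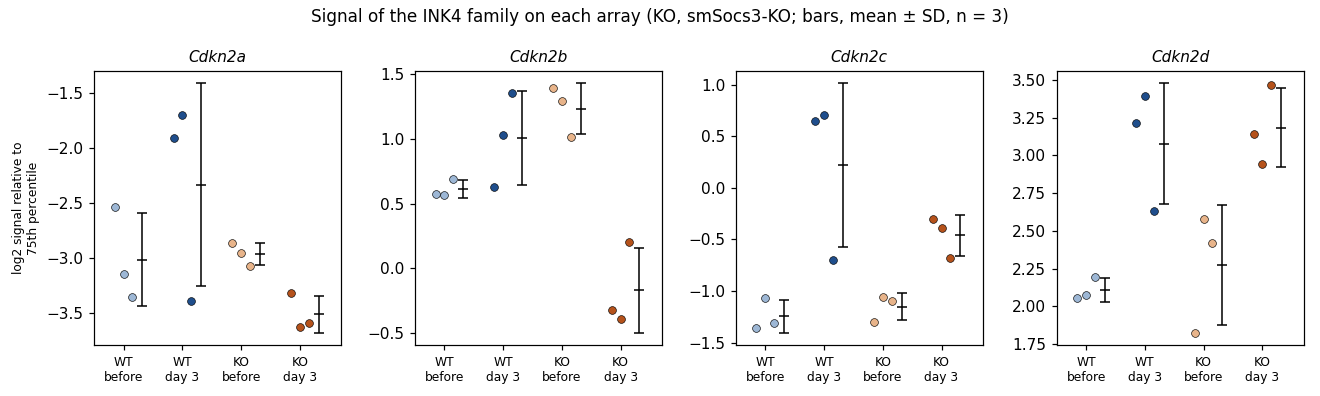
Log2 signal relative to the array's 75th percentile (vertical axis, own scale in each panel) for the 4 INK4 genes in the 4 groups; each point is 1 array, and bars show mean ± SD (n = 3). Cdkn2b is lowest in smSocs3-KO day 3, at -0.39 to 0.21, whereas Cdkn2c and Cdkn2d are higher at day 3 in both genotypes.

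Rb1, whose product is the substrate of the cyclin D kinases, had the smallest mean response of the 9 genes. WT arrays lay between 1.32 and 1.79 before challenge and between 1.30 and 1.67 at day 3. smSocs3-KO arrays lay between 1.42 and 1.61, then between 1.28 and 1.61. The mean response of -0.03 had a 95% confidence interval from -0.31 to 0.25, and all groups overlapped.

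Genes downstream of the Rb1 product were measured on lists apart from these 10. Of 20 E2F targets of S phase, 15 rose and 0 fell in the mean response, where 13.6% of all genes rose, with a median of 1.37, and 8 rose in WT, where 3.59% of all genes did. Tk1, thymidine kinase, rose by 3.53 (SE 0.51, adjusted p = 0.00481), Rrm2, a ribonucleotide reductase subunit, by 2.75 and Mcm5, of the replicative helicase, by 2.58. Of the 20 E2F targets, 0 passed in smSocs3-KO, where 2.45% of all genes did. At an unadjusted p under 0.05, 13 of the 20 were higher there, a threshold that 23.8% of all genes met. All 13 mitosis genes tested rose in WT, with a median of 3.92, or 3.67 with the genes not above background at their bound. At least Bub1 and Cdk1 of these passed the filter through day 3 arrays alone, so the filter fixed the direction of their rise. In smSocs3-KO only Cdk1 passed (adjusted p = 0.0387), where 2.45% of all genes did, with a median over the list of 2.27, or 2.14 with bounds. All 13 were higher there at an unadjusted p under 0.05, a threshold that 23.8% of all genes met. The interaction was called for 0 of 13 and for 0% of all genes. Cdk1 was well above background on 1 of 3 smSocs3-KO arrays before challenge, so no fold is given for it there. That call held in 4 of 12 omissions, those of WT day 3 replicates 1, 3 and 4 and of smSocs3-KO before challenge replicate 4, and the adjusted p ran up to 0.130. Bub1, a spindle checkpoint kinase, and Cdk1, the kinase that drives mitosis, were not well above background on any WT array before challenge. Bub1 was at least 12.1-fold higher in WT day 3 and Cdk1 at least 23.5-fold. The bound takes, on each dim array, the higher of the probe's own signal and the lowest signal of any probe well above background. The adjusted p of Bub1 (0.0279) and of Cdk1 (0.0304) came from the limma fit without the bound. Top2a, a topoisomerase of dividing cells, rose by 3.32 in the mean response and was well above background on 2 of 3 WT arrays before challenge. The WT calls of Bub1 and Cdk1 were lost without any WT array other than day 3 replicate 4 and without smSocs3-KO before challenge replicate 4. The adjusted p over all omissions was 0.000272 to 0.131 for Bub1 and 0.000421 to 0.142 for Cdk1. Without WT day 3 replicate 4, 19 of 20 E2F targets rose in WT and 11 in smSocs3-KO, and 12 of the 14 mitosis genes then tested rose in smSocs3-KO. Calls over all genes were also more frequent then. Of 22938 genes, 3665 were called in WT and 1900 in smSocs3-KO, against 1065 and 557 of 22761 with all arrays.

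Of the 27 other G1 control genes, 14 rose and 1 fell in the mean response, where 13.6% of all genes rose and 9.18% fell. Ccna2, cyclin A2, rose by 3.55 (adjusted p = 0.00445), and so did Cdkn3, a phosphatase of CDKs, by 3.40 (adjusted p = 0.00481), though it was well above background on only 2 of 3 arrays of each genotype before challenge. E2f8, a repressive E2F factor, was well above background on 0 of 3 WT and 1 of 3 smSocs3-KO arrays before challenge. It was at least 10.2-fold higher in WT day 3 (adjusted p = 0.0363 in the limma fit without the bound). Cdkn3 and E2f8 passed the filter through day 3 arrays alone, so the filter favoured a rise for them. Cdkn2b was the gene that fell (by 0.50, adjusted p = 0.0414, a call that held in 3 of 12 omissions). Ccne1, cyclin E1, rose by 3.13 (adjusted p = 0.00526), more than any D-type cyclin. Of 14 p53 targets, 5 rose in the mean response, against 13.6% of all genes, and the median over the 14 was 0.18. The 5 were the polo-like kinase Plk2 (1.5), the apoptosis effector Bax (0.77), Ccng1 (0.62), Phlda3 (0.56) and Gtse1. Gtse1 was not well above background on any WT array before challenge and on 1 of 3 smSocs3-KO arrays. It was at least 4.65-fold higher in WT day 3 (adjusted p = 0.0404 in the limma fit without the bound). Gtse1 too passed the filter through day 3 arrays alone, so the filter favoured its rise. Cdkn1a itself did not pass. Of 14 inducers of D-type cyclins, Myc rose by 1.68 (SE 0.42, adjusted p = 0.0203) and Rela fell by 0.37 (adjusted p = 0.0406), 2 of 14 where 22.7% of all genes passed. Of 13 genes for degradation of D-type cyclins and CDK inhibitors, 1 passed, Cops5, which rose by 0.53 (adjusted p = 0.0185), against the same 22.7%. Myc, Rela, Cops5, Ccng1, Phlda3, Ccne1 and the INK4 genes were named after their values were seen.

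**Figure D5:**
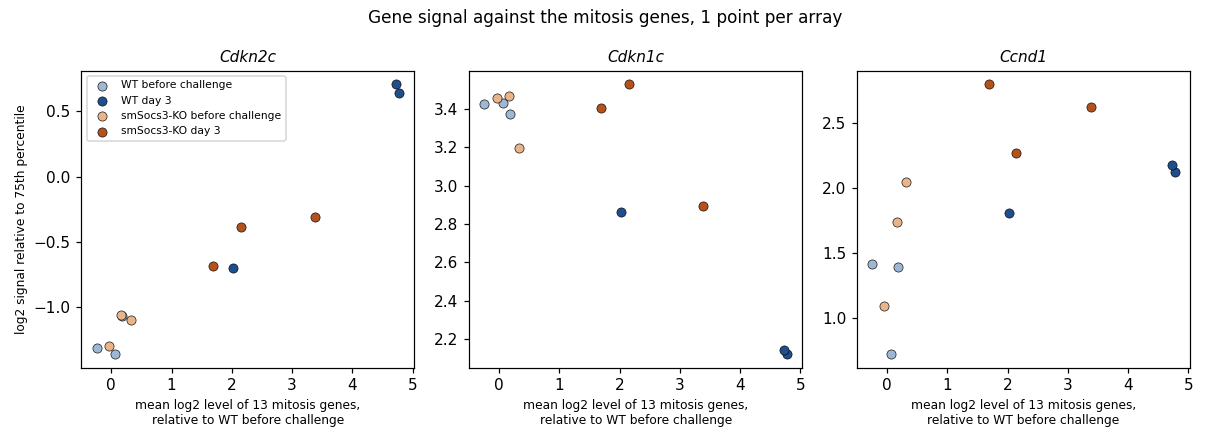
Log2 signal of Cdkn2c, Cdkn1c and Ccnd1 relative to the array's 75th percentile (vertical axes) against the mean log2 level of 13 mitosis genes relative to WT before challenge (horizontal axis); each point is 1 of 12 arrays. WT day 3 replicates 1 and 3, at 4.78 and 4.73 on the horizontal axis, have the highest Cdkn2c and the lowest Cdkn1c.

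Array by array, the day 3 values were as follows. In WT replicates 1, 3 and 4 the mitosis level was 4.78, 4.73 and 2.02, Cdkn2c 0.64, 0.71 and -0.70, Cdkn1c 2.12, 2.15 and 2.86 and Ccnd1 2.12, 2.18 and 1.81. Replicate 4 was thus the lowest of the WT day 3 arrays in the mitosis level, Cdkn2c and Ccnd1 and the highest in Cdkn1c. In smSocs3-KO replicates 2, 3 and 5 the mitosis level was 3.39, 2.15 and 1.69, Cdkn2c -0.31, -0.39 and -0.68, Cdkn1c 2.89, 3.53 and 3.40 and Ccnd1 2.63, 2.27 and 2.80. There Cdkn2c ran in the order of the mitosis level, whereas Cdkn1c and Ccnd1 did not. No difference between the genes was tested. The points fall into groups, so no correlation is given.

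Markers of other cells moved with challenge too. Of 8 macrophage markers, 6 rose in the mean response, where 13.6% of all genes rose. Their mean log2 level over WT before challenge was 1.51, 1.07 and -0.03 in WT day 3 replicates 1, 3 and 4. In smSocs3-KO it was 0.07 to 0.35 before challenge and 1.42 to 1.43 at day 3, without overlap. Their summed level, in multiples of the 75th percentile, did not move alike: it was 194 to 240 on WT arrays before challenge and 164 to 281 at day 3, and on smSocs3-KO arrays 143 to 334 and then 178 to 218. Of 8 smooth muscle markers, 2 fell, Myh11 by 1.09 and Myocd by 0.62, where 9.18% of all genes fell. Their mean log2 level was -0.62, -0.69 and 0.08 in WT day 3 and -0.82 to -0.39 in smSocs3-KO day 3, and their summed levels were 2674 to 2963 and 2102 to 2640 in WT and 2369 to 3551 and 1709 to 2024 in smSocs3-KO. WT day 3 replicate 4, near WT before challenge in both marker means, was also the WT day 3 array whose Cdkn1c and Cdkn2c lay nearest to their levels before challenge. Of 5 T cell markers tested, Cd3d and Cd3g fell in the mean response, by 1.5 and 1.35, where 9.18% of all genes fell. Each was well above background on only 1 of 3 WT day 3 arrays, so the size of these falls is uncertain. In WT 2 of 5 were called lower (median over the list -1.81), against 1.09% of all genes, and in smSocs3-KO 0 of 5 (median -0.47). The part of these cell markers in the differences of the cyclins and inhibitors was not tested.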

How the data were processed

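RNA of 12 male mouse aortas was hybridised to 1-colour Agilent arrays. The deposited scanner files hold the authors' background-corrected intensity of each spot (gProcessedSignal). Per the file headers Feature Extraction was version 10.7.1.1, and the submitters' processing notes name 9.5.1.1. The deposited value table holds the authors' quantile-normalised intensity, which ranked probes as the scanner files did (Spearman at least 0.99997), and was used as an alternative. Spots marked as outliers and control spots were left out. Signals were divided by each array's 75th percentile and taken to log2. Probes that read well above background throughout some group were kept, and the brightest stood for its gene. Group means were fitted with limma 3.58.1 (R 4.3.3) over all genes, with Benjamini-Hochberg adjustment at 0.05. Probe coordinates are mm9, and exon or UTR annotation on that build was not used here. Arrays with the same replicate number were not treated as pairs in the main fit. Their deviations from group means correlated at -0.30 to 0.46, which does not settle whether they were paired. The genes and lists were chosen with earlier results of these data known. Named from the other G1, E2F, mitosis and p53 lists were the 3 genes with the largest called mean response, and for each cyclin the 3 genes most correlated with it. The scripts were tested on simulated data. The number of arrays limits precision.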

Additional observations from a re-analysis of the deposited data

How the results depend on the processing

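The counts of genes called between genotypes before challenge and in the interaction were 0 of 9 under every alternative run. Over all genes the alternatives called 0 to 26 before challenge and 0 to 10 in the interaction. In the mean response Ccnd1 and Cdkn2c kept their direction under all 23 alternatives and their call under 22. The exception for both was the replicate block, which called 0 of the 9 genes in the mean response and 0 in WT. Over all genes that block called 895 of 22761 in the mean response, against 5178 in the main fit, and 0 in WT, against 1065. Whether equal replicate numbers mark pairs is not settled. Deviations of same-numbered arrays from their group means correlated at -0.30 to 0.46 (0.46 and 0.33 between genotypes before challenge). In the mean response 5 of 9 were called with normexp and the 75th percentile, with probes well above background on all 12 arrays, with the mean of all kept probes, or with a trended and robust variance. Over all genes these settings called, in that order, 4864 of 22761, 4995 of 19535, 5336 of 22761 and 5650 of 22761. In WT the count was 1 with the median of each array, and 0 with no filter on dim probes, with only the arrays compared or within slide 1, an alternative chosen after seeing the data. Over all genes these settings called, in that order, 1062 of 22761, 10 of 34797, 0 of 21831 and 0 of 23029 in WT. Leaving out each array gave 0 to 3 genes called in WT, 0 to 1 in smSocs3-KO, 0 to 2 at day 3 between genotypes and 2 to 4 in the mean response. The gene called at day 3 without WT day 3 replicate 3 was Cdk6, which then passed the filter through the remaining WT day 3 arrays alone, so the filter fixed the direction of that call. Over all genes 1065 were called in WT, and 0 to 3665 when arrays were left out. The like counts were 557, and 42 to 1900, in smSocs3-KO, and 253, and 47 to 651, at day 3 between genotypes. In the mean response they were 5178, and 2533 to 6458. Dividing by the median of each array shifted the median of all genes by up to 0.21 (no filter by up to -0.12), and gave Cdkn1c in the mean response -0.36 (adjusted p = 0.204). Causes of these changes were not tested.

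Of the 54 differences of the 9 genes, 28 changed sign under an alternative, and all of these were uncalled in the main analysis and at most 0.53 in size there. With the slide as a block, Ccnd1 was -0.28 at day 3 between genotypes and -0.19 in the interaction. At day 3 the block also turned Ccnd3 to -0.10, Cdkn1a to -0.063 and Cdkn1b to -0.053. It turned Cdkn1b in smSocs3-KO to -0.10, as did slide 2 alone (-0.10), which compared the same smSocs3-KO arrays. Before challenge, the block and slide 1 alone compared the same arrays, smSocs3-KO replicate 1 with the WT arrays. Both gave -0.087 for Ccnd1, -0.32 for Ccnd2, -0.15 for Cdk4, 0.046 for Cdkn1c, -0.049 for Cdkn2c and -0.076 for Rb1. The replicate block gave interactions of -0.41 for Ccnd1, 0.051 for Ccnd2, 0.0059 for Ccnd3 and 0.12 for Rb1, and day 3 genotype differences of 0.061 for Ccnd2, -0.30 for Cdkn1a and 0.036 for Rb1. It gave smSocs3-KO responses of -0.054 for Cdkn1a, 0.046 for Cdkn1c and 0.0023 for Rb1, and Rb1 -0.12 in WT and -0.085 before challenge. Quantile normalisation, quantile after normexp and the authors' value table gave, in that order, Ccnd3 in WT -0.045, -0.051 and -0.045, its interaction 0.094, 0.10 and 0.094, Rb1 in WT -0.084, -0.063 and -0.084, and Cdkn1b in smSocs3-KO -0.097, -0.10 and -0.098. Normexp with quantile also gave Ccnd3 -0.021 before challenge and -0.00065 in the mean response, and normexp with the 75th percentile gave Cdkn1b 0.014 before challenge and Cdkn2a -0.083 in the mean response. The median of each array gave 0.042 for Cdk4 and 0.12 for Rb1 at day 3, 0.14 for Cdkn1b and 0.11 for Cdkn1c before challenge, 0.11 for Cdkn1c and 0.13 for Rb1 in smSocs3-KO, and 0.062 for Cdkn1b and 0.17 for Rb1 in the mean response. The mean of all kept probes gave Cdkn1a -0.16 at day 3, and Cdkn1b 0.11 before challenge and -0.25 in smSocs3-KO. Leaving out each array gave sign changes within these ranges: the Ccnd1 interaction at -0.19 to 0.31, Cdk4 at -0.30 to 0.067 at day 3 and -0.014 to 0.27 before challenge, Cdkn1a at -0.25 to 0.43 at day 3 and -0.0044 to 0.68 in smSocs3-KO, Cdkn1b at -0.11 to 0.12 before challenge and -0.15 to 0.13 in smSocs3-KO, Cdkn1c at -0.083 to 0.051 and -0.22 to 0.093 likewise, and Cdkn2a at -0.092 to 0.33 in the mean response. Rb1 lay at -0.072 to 0.16 in WT, -0.14 to 0.018 in smSocs3-KO, -0.15 to 0.051 at day 3, -0.039 to 0.19 before challenge, -0.23 to 0.0027 in the interaction and -0.074 to 0.042 in the mean response.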
